A study of Mus musculus with 38 samples.

Results

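MHC class I chains, the light chain B2m and the class I transactivator Nlrc5 were followed in primary mouse embryonic fibroblasts (MEFs) of the C57BL/6 strain. The members are 10 named genes (H2-K1, H2-D1, H2-Q4, H2-Q6, H2-Q7, H2-T22, H2-T23, H2-M3, B2m and Nlrc5), found by Ensembl identifier among the 45706 genes of each of 2 count tables. Cells were wild-type (WT) or homozygous for a knock-in allele of the NF-kB subunit RelA named RelA-TA-KI in the labels. The title of the series speaks of transactivation, which TA is taken to stand for, and the labels do not say which residues the allele changes. All groups were serum-starved overnight, then left untreated or given TNF at 10 ng/ml, LPS at 100 ng/ml or Poly(I:C), a double-stranded RNA mimic, at 20 ug/ml, and poly(A) RNA was sequenced after 0.5, 1, 3 or 8 h. The TNF table holds 20 libraries, 2 per genotype and time with untreated cells as 0 h. The LPS and Poly(I:C) table holds 18 libraries, 1 per genotype and condition, with untreated libraries of its own. The labels do not say whether the 2 replicates of a group came from separate embryos or cultures, so p-values measure only the spread between these samples.

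MHC class I molecules show peptides from inside the cell to CD8 T cells and natural killer cells. Each is a heavy chain bound to B2m. H2-K1 and H2-D1 encode the classical heavy chains. H2-Q6 and H2-Q7 encode Qa-2 chains, H2-T23 encodes Qa-1, which engages inhibitory receptors of natural killer cells, H2-T22 is a ligand of some gamma-delta T cells, and H2-M3 presents peptides that carry a formyl group. H2-Q4 is another non-classical chain of the Q region. Transcription of these genes is known to be driven through an enhancer bound by NF-kB, an interferon response element bound by IRF factors, and an SXY module bound by the RFX complex and CREB, to which Nlrc5 is recruited. In fibroblasts class I is low at rest and rises with interferon and TNF.

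The heavy chain genes lie in the MHC on chromosome 17 of mm10: H2-T23 at 36029773 to 36032855 and H2-T22 at 36037128 to 36042747 on the minus strand, and H2-M3 at 37270220 to 37274484 on the plus strand. H2-K1 lies at 33996017 to 34000333 on the minus strand. H2-D1 lies at 35262730 to 35267499, H2-Q4 at 35379617 to 35385290, H2-Q6 at 35424850 to 35430055 and H2-Q7 at 35439155 to 35443773, all on the plus strand. B2m lies on chromosome 2 at 122147686 to 122153083 and Nlrc5 on chromosome 8 at 94472763 to 94527272, both on the plus strand.

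RefSeq promoter windows (GRCm38.p6, the assembly of mm10, 250 bases before to 50 after a gene's start) matched 9 of the 10 members. They are shown for the NF-kB and interferon elements that the compared RelA allele and agents bear on. Each line below runs 5′ to 3′ on the gene's strand from 220 to 75 bases before the RefSeq start, and capitals mark matches to the kB consensus or to the interferon-stimulated response element (ISRE), searched on both strands. The ISRE was searched as GAANNGAAA and, in a form added after seeing the data, as the longer core GAAANNGAAA. The stretches of H2-D1 and H2-T23 overlap the count table's gene models and are not printed.
H2-K1, chr17:34000422-34000567, minus strand: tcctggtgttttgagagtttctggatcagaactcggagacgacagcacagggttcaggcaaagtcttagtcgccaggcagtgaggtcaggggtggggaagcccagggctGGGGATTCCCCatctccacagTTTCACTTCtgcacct
H2-Q4, chr17:35379397-35379542, plus strand: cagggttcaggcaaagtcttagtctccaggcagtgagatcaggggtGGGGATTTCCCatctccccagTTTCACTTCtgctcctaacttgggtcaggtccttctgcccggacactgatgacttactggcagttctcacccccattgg
H2-Q6, chr17:35424630-35424775, plus strand: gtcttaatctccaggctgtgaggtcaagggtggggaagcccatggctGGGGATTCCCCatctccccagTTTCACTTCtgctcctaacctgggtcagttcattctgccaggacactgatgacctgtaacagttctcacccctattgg
H2-T22, chr17:36042817-36042962, minus strand: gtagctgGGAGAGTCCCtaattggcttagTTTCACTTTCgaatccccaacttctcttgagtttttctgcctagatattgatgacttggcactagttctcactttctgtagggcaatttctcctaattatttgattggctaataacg
H2-M3, chr17:37270014-37270159, plus strand: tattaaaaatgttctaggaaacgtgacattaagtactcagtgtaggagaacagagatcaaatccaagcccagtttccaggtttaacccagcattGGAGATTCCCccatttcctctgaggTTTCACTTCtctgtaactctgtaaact
B2m, chr2:122147467-122147612, plus strand: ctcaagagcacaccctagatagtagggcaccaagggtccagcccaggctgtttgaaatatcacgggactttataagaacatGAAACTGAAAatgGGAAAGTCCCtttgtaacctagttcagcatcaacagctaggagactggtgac

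In H2-K1, H2-Q4 and H2-Q6 the capitals form a pair: overlapping kB matches (GGGGATTCCC and GGGATTCCCC in H2-K1, H2-Q6 and H2-D1, GGGGATTTCC and GGGATTTCCC in H2-Q4), then the shorter ISRE form, TTTCACTTC on the opposite strand. H2-Q7 held 1 kB match and the same ISRE letters, and H2-M3 held both elements with other kB letters, GGAGATTCCC. H2-T22, H2-T23 and B2m held the longer ISRE core instead, as TTTCACTTTC, TTTCTCTTTC and GAAACTGAAA, and the first and last of these also held a kB match. In all, the kB consensus was found in 8 of the 9 windows, against 4.51% of all 32841 windows of this length. The shorter ISRE form was found in 6 (7.51%), and either form in 9 of 9 (10.4%). The kB consensus and either ISRE form stood together in 8 of the 9 windows, all but that of H2-T23, and in 0.463% of all windows. The CCAAT box (CCAAT) was found in 9 of 9 (37.4% of all windows), the CRE core (TGACG) in 7 of 9 (20.8%) and the gamma-activated site (TTCNNNGAA) in 1 of 9, H2-M3 (8.3%). These are letter matches in related genes that share sequence, not measured sites.

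Reads were single-end and 50 bases long, and class I genes share stretches of that length. Of the 50-base words in a member's GENCODE transcripts, 34.5% were also in other genes for H2-T22 (31.2% in H2-T10), 32% for H2-Q6, 26.4% for H2-Q7 and 21.8% for H2-Q4. The share was 13.6% for H2-T23, 12.8% for H2-D1 and 9.63% for H2-K1. It was 0.576% for H2-M3 and 0 for B2m and Nlrc5. How reads that fit several genes were counted is not given in the sources used here, so the split among Q genes and between H2-T22 and H2-T10 is uncertain.

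The TNF libraries held 6.72 to 9.59 M counts each, and the LPS and Poly(I:C) libraries 7.02 to 9.43 M. Summed fibroblast markers (10 genes) were 31028 to 78493 CPM (counts scaled by the TMM library size) and no marker was at 0. Macrophage and leukocyte markers were present as well, 20 of 20 in every library. In the TNF table their sum was 1308 to 1677 CPM in WT replicate 1, 1728 to 2682 in WT replicate 2, 1501 to 2791 in RelA-TA-KI replicate 1 and 2316 to 5313 in RelA-TA-KI replicate 2. In the other table it was 4436 to 8427. T and natural killer cell markers were at or near 0, with 0 counts of Ifng, which encodes interferon gamma, in all 38 libraries. In WT replicate 2 Xist was at 2.32 to 3.9 CPM and the Y-linked Ddx3y at 128 to 160, while the other 3 sets of TNF libraries had 337 to 517 and 0 to 0.676. In the other table WT libraries had 251 to 438 CPM of Xist and 55.9 to 98.4 of Ddx3y, and RelA-TA-KI libraries 0.464 to 1.49 and 127 to 183. In bulk RNA, fewer cells of a type and less RNA per cell cannot be told apart.

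In untreated cells of the TNF table B2m was the most abundant member per length, at 511 CPM per kb of exon in WT (SD 57.3, n = 2) and 535 in RelA-TA-KI (SD 42.2). H2-D1 followed at 39.2 and 46 CPM per kb (SD 10.3 and 10.8), then H2-K1 at 22.6 and 28.2 (SD 2.75 and 7.38) and H2-T22 at 7.79 and 9.03 (SD 1.22 and 0.568). H2-T23, H2-M3 and H2-Q4 lay between 2.5 and 4.78 CPM per kb, and H2-T23 and H2-M3, as well as H2-M3 and H2-Q4, overlapped between replicates. Nlrc5 stood at 0.776 and 0.877 CPM per kb, and H2-Q6 and H2-Q7 at 0.0525 to 0.229. The order was thus the same in both genotypes. At 8 h of TNF H2-K1 (131 CPM per kb, SD 35.3) stood above H2-D1 (106, SD 27.1) in WT with overlapping replicates, and H2-Q4 had moved above H2-T22, H2-T23 and H2-M3 to 42.3 (SD 13.1).

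H2-Q6 and H2-Q7 passed the filter on low counts only through the WT libraries at 3 and 8 h of TNF, the only groups in which both libraries had at least 10 counts. A difference was thus needed for them to be tested at all, so they are described by their counts, and the TNF results below are counted over the other 8 members, which had 10 counts or more in all 10 groups.

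Before treatment no genotype difference was called in these 8 by the edgeR quasi-likelihood test (0.00722% of the 13843 genes tested were called, with 0 of the 8 at an unadjusted p below 0.05 and 0 called by DESeq2). All 8 fitted differences lay above 0, from 0.07 to 0.55 on the log2 scale. H2-K1 replicates 1 and 2 had 53.8 and 63.9 CPM in WT against 59.9 and 87.2 in the knock-in, and B2m 404 and 474 against 435 and 486. Both pairs of groups overlapped.

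Class I was higher in WT cells from 3 h of TNF on. Untreated libraries were taken at 0 h only, for every agent. The agent thus cannot be told apart from the time in culture that went with it. At 3 h 2 of the 8 members had risen (9.32% of all genes were called higher, 15.7% in either direction), H2-Q4 and H2-K1. With the replicate number as a block within genotype 6 were called at 3 h, adding H2-D1, H2-T22, H2-M3 and B2m. At 8 h 8 of 8 had risen (12% of all genes were called higher, 20.8% in either direction). The median log2 response of the 8 was 0.53 at 3 h and 1.46 at 8 h, beside -0.01 over all genes at both times. Before that, at 0.5 and 1 h, edgeR and DESeq2 called 0 of the 8 (1.04 and 3.81% of all genes were called), with 0 at an unadjusted p below 0.05.

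H2-K1 went from 53.8 and 63.9 CPM in the untreated WT libraries to 138 and 207 at 3 h and 277 and 408 at 8 h. In RelA-TA-KI it went from 59.9 and 87.2 CPM to 64.3 and 97.9 at 3 h and 121 and 175 at 8 h. Every WT library at 3 h lay above every RelA-TA-KI library at that time, and the same held at 8 h. The WT response was 1.55 on the log2 scale at 3 h (SE 0.31, adjusted p = 0.0032) and 2.53 at 8 h (SE 0.31, adjusted p = 4.4e-05). The RelA-TA-KI response was 0.14 at 3 h (SE 0.3, adjusted p = 0.78) and 1.01 at 8 h (SE 0.3, adjusted p = 0.015).

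H2-D1, the other classical chain, responded less. It went from 82.4 and 119.9 CPM to 224 and 323 at 8 h in WT, and from 98.8 and 138 to 153 and 249 in RelA-TA-KI. The genotypes overlapped at both times. The WT response at 8 h was 1.43 (SE 0.32, adjusted p = 0.0053) and fell short of the threshold without WT 8 h replicate 2 (1.14, adjusted p = 0.058) or without untreated WT replicate 1 (1.19, adjusted p = 0.058). The RelA-TA-KI response was 0.76 (SE 0.32, adjusted p = 0.067).

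Among the non-classical chains H2-Q4 had the widest gap at substantial counts. It stood at 4.93 and 8.07 CPM in untreated WT cells, 29.9 and 53.8 at 3 h and 85.7 and 134 at 8 h. The RelA-TA-KI libraries had 8.84 and 10.7 CPM untreated, 6.89 and 11.4 at 3 h and 17.2 and 21.2 at 8 h. Both untreated RelA-TA-KI libraries lay above both untreated WT libraries, and both lay below at 3 and 8 h. The WT response was 2.66 at 3 h (SE 0.35, adjusted p = 0.00012) and 4.04 at 8 h (SE 0.35, adjusted p = 1.8e-06), and the RelA-TA-KI response at 8 h was 0.98 (SE 0.35, adjusted p = 0.036).

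H2-Q6 and H2-Q7 were rare. H2-Q6 had 1 and 2 counts in untreated WT libraries, 27 and 41 at 3 h and 50 and 73 at 8 h. In RelA-TA-KI it had 4 and 4 untreated, 2 and 4 at 3 h and 4 and 7 at 8 h. The WT ratio to untreated was 23.7 at 3 h (95% exact counting interval 7.77 to 118) and 43.7 at 8 h (14.6 to 215), and the RelA-TA-KI ratio at 8 h was 1.37 (0.502 to 3.92). H2-Q7 had 1 and 3 counts in untreated WT cells and 17 and 22 at 8 h, a ratio of 10.4 (3.75 to 40.1), while RelA-TA-KI cells had 5 and 4 and then 6 and 9, for which the ratio was 1.66 (0.68 to 4.3). RelA-TA-KI against WT, the ratio of H2-Q6 counts was 0.0823 at 3 h (0.0292 to 0.189) and 0.0837 at 8 h (0.0407 to 0.155). At 1 h H2-Q6 had 11 and 5 counts in WT and 0 and 1 in RelA-TA-KI. These intervals cover counting error only.

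The T-region and M-region chains were called at 8 h, and H2-T22 and H2-M3 also at 3 h with the block (adjusted p = 0.024 and 0.011). H2-T22 was at 23.6 and 29.6 CPM in untreated WT cells, 33 and 37 at 3 h and 62.8 and 86.8 at 8 h, and in RelA-TA-KI at 32.2 and 29.4, then 24.8 and 29.5, then 32 and 45.2. Its WT response at 8 h was 1.48 (SE 0.19, adjusted p = 6.1e-05). H2-T23 was at 6.53 and 12.8 CPM in untreated WT cells and 17.3 and 24.6 at 8 h, against 13.3 and 14.4 and then 9.43 and 17.6 in RelA-TA-KI. Its WT response, 1.08 (SE 0.37, adjusted p = 0.04996), lay at the threshold and fell short of it without WT 8 h replicate 1 (1.31, adjusted p = 0.054) or 2 (0.8, adjusted p = 0.27) or without untreated WT replicate 1 (0.71, adjusted p = 0.27). H2-M3 went from 3.48 and 5.95 to 11 and 14.2 CPM in WT (1.38, SE 0.26, adjusted p = 0.0015) and from 5.65 and 7.53 to 6.79 and 8.56 in RelA-TA-KI.

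B2m, the light chain that heavy chains bind, went from 404 and 474 CPM to 751 and 998 at 8 h in WT. In RelA-TA-KI it went from 435 and 486 to 529 and 644. All 4 libraries at 8 h lay in genotype order, with the lowest WT library above the highest RelA-TA-KI one. The WT response was 0.99 (SE 0.15, adjusted p = 0.00021), the smallest of the 8 at 8 h. The summed heavy chains rose by more: from 175 and 241 CPM to 687 and 1002 in WT, and from 220 and 288 to 341 and 518 in RelA-TA-KI.

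Nlrc5, the transactivator, was not among the members called at 3 h in WT. It stood at 5.51 and 6.35 CPM untreated, 4.42 and 6.55 at 3 h (-0.10, SE 0.40, adjusted p = 0.91) and 17.8 and 33.2 at 8 h (2.09, SE 0.35, adjusted p = 0.00067). H2-K1 and H2-Q4 had risen in the same 3 h libraries. The RelA-TA-KI libraries had 5.65 and 7.77 CPM untreated, 4.71 and 6.35 at 3 h and 8.29 and 17.9 at 8 h. The genotypes overlapped at 8 h, where RelA-TA-KI replicate 2 reached 17.9 and WT replicate 1 reached 17.8.

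**Figure D1:**
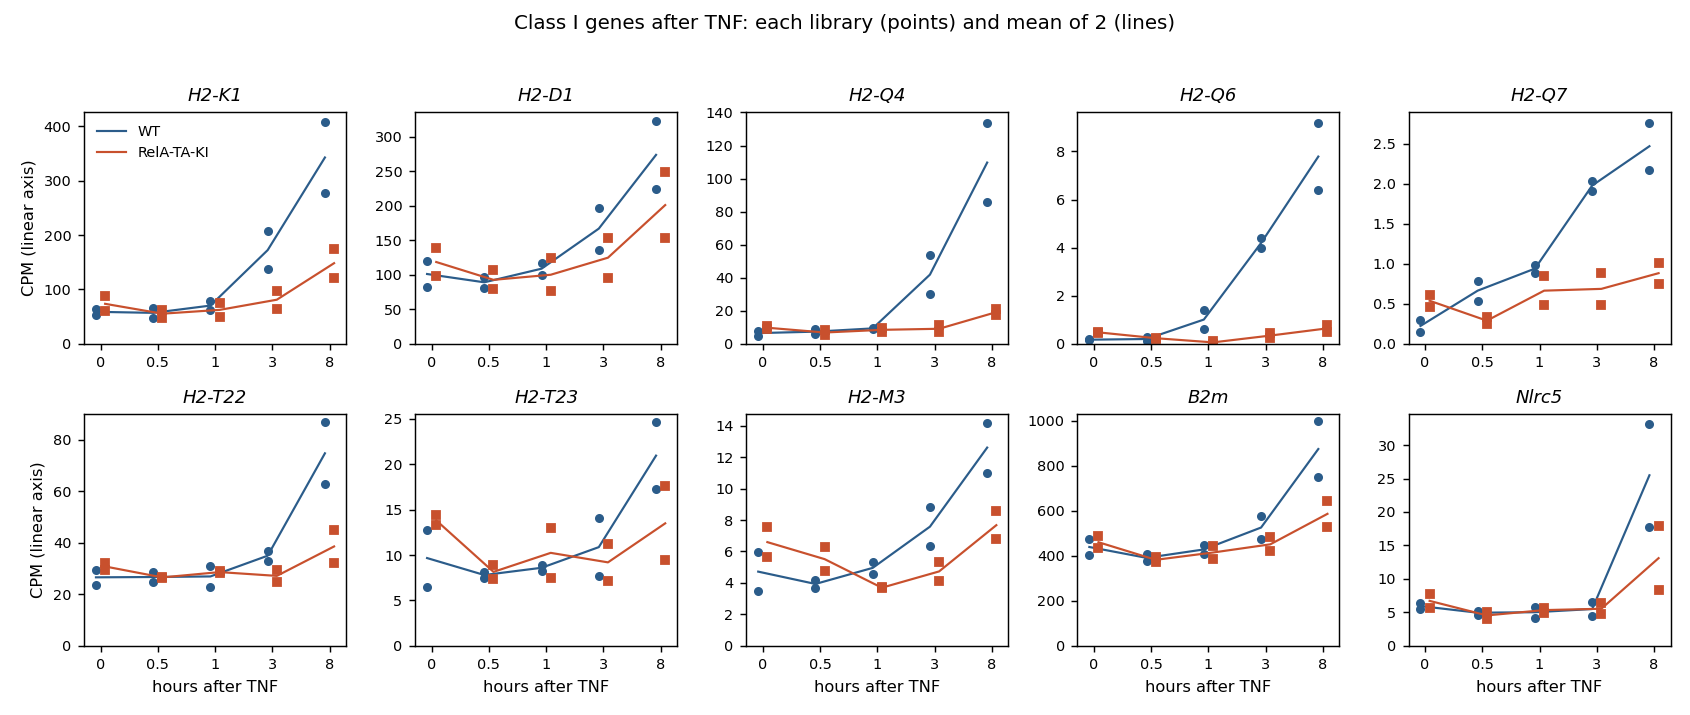
CPM (linear axis) of the 10 members by hours after TNF (evenly spaced, not to scale) in WT (blue circles) and RelA-TA-KI (red squares), each point 1 library and each line the mean of 2. At 3 h both WT points lie above both RelA-TA-KI points for H2-K1, H2-Q4, H2-Q6, H2-Q7, H2-T22 and H2-M3, and Nlrc5 stays between 4.42 and 6.55 CPM in both genotypes at that time.

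In RelA-TA-KI cells 3 of the 8 members rose at 8 h (21.6% of all genes were called higher, 42.1% in either direction). They were H2-K1, H2-Q4 and Nlrc5 (0.97, SE 0.36, adjusted p = 0.041). The median log2 response of the 8 was 0.56, with 5 at an unadjusted edgeR p below 0.05. DESeq2 also called 3 but with H2-D1 (adjusted p = 0.039) in place of Nlrc5 (adjusted p = 0.051). When the replicate number was added as a block within genotype, 6 were called, adding H2-D1, H2-T22 and B2m. The calls depend on single libraries. H2-K1 was lost without RelA-TA-KI 8 h replicate 2 (0.73) or untreated replicate 1 (0.77), Nlrc5 without 8 h replicate 2 (0.31, adjusted p = 0.57), untreated replicate 1 (0.77) or untreated replicate 2 (1.21), and H2-Q4 without any 1 of the 4 libraries (0.82 to 1.11, adjusted p 0.057 to 0.17). At 0.5, 1 and 3 h edgeR and DESeq2 called 0 of the 8 (1.07, 3.28 and 19% of all genes), with 0, 1 and 0 at an unadjusted p below 0.05. The fit with that block called 4 at 0.5 h, all lower than untreated: H2-K1 (-0.40), H2-D1 (-0.35), H2-T23 (-0.77) and B2m (-0.27). It called H2-D1 (-0.26) and H2-M3 (-0.83), both lower, at 1 h, and H2-T23 (-0.60), lower, at 3 h.

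In the fit without a replicate block, the response itself differed between genotypes for H2-Q4 at 3 h. At 8 h it differed for H2-Q4, H2-K1 and H2-T22. With the replicate number as a block within genotype, the difference was called in more members (4 of 8 at 3 h and 8 of 8 at 8 h). This difference is the RelA-TA-KI response minus the WT response, so a negative value is a smaller rise in RelA-TA-KI. At 3 h it was called, as lower, in 1 of the 8 members (0.73% of all genes were called lower, 0.932% in either direction), H2-Q4, by -2.75 (SE 0.52, adjusted p = 0.019). At 8 h it was called, as lower, in 3 of the 8 (3.42% of all genes lower, 6.87% in either direction): H2-Q4 by -3.06 (SE 0.5, adjusted p = 0.0027), H2-T22 by -1.15 (SE 0.27, adjusted p = 0.019) and H2-K1 by -1.52 (SE 0.42, adjusted p = 0.045). At 0.5 and 1 h edgeR and DESeq2 called 0 differences in the 8 (0.0506 and 0.311% of all genes), with 0 and 1 at an unadjusted p below 0.05.

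All 8 fitted differences at 8 h were negative, with a median of -1.14 beside -0.01 over all genes. The 5 members not called were H2-M3 (-1.16, adjusted p = 0.071), Nlrc5 (-1.12, adjusted p = 0.2), H2-T23 (-1.11, adjusted p = 0.22), H2-D1 (-0.67, adjusted p = 0.4) and B2m (-0.64, adjusted p = 0.072). With the block within genotype, 8 of 8 were called at 8 h and 4 of 8 at 3 h, where H2-K1, H2-D1 and H2-M3 joined. Single libraries also decide calls the other way. H2-K1 at 8 h kept its call only without WT 8 h replicate 1 or without untreated RelA-TA-KI replicate 1, and its values without each of the other 6 libraries were -1.21 to -1.81 (adjusted p 0.058 to 0.19). H2-T22 kept its call only without WT 8 h replicate 1, RelA-TA-KI 8 h replicate 2 or untreated WT replicate 2, and had -0.90 to -1.22 without each of the other 5 (adjusted p 0.054 to 0.094). At 3 h H2-Q4 kept its call without WT 3 h replicate 1, RelA-TA-KI 3 h replicate 2 or untreated WT replicate 2 and had -2.26 to -2.88 without each of the other 5 (adjusted p 0.055 to 0.12). H2-Q4 at 8 h kept its call without each of the 8 libraries in turn. With all 5 WT libraries numbered 2 left out (an alternative chosen after seeing the data), which hold the Y-linked transcript, 1 of the 8 was called at 8 h and 0 at 3 h. With all 5 RelA-TA-KI libraries numbered 2 left out, 0 were called at either time. Both fits leave 1 library per time in 1 genotype, which is then assumed to vary like the other.

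**Figure D2:**
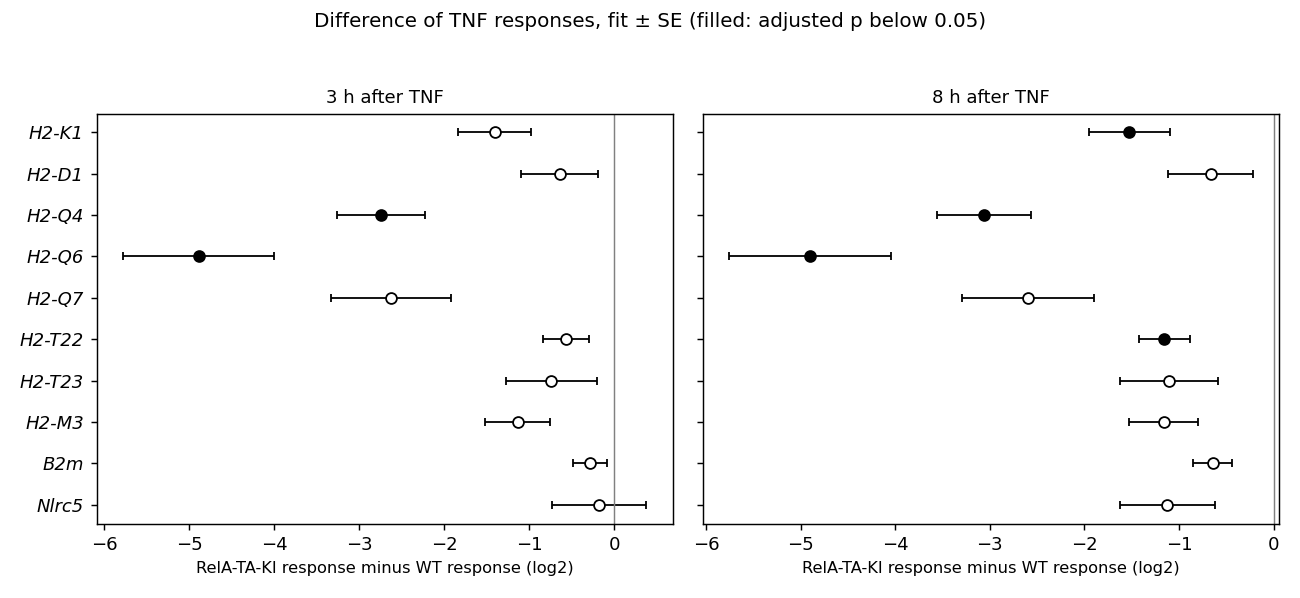
RelA-TA-KI response minus WT response (log2, fit ± SE) of each member at 3 h (left) and 8 h (right) after TNF, filled where the adjusted p was below 0.05. The points of the 8 members counted lie left of 0 at both times, from -0.18 to -2.75 at 3 h and from -0.64 to -3.06 at 8 h. The points of H2-Q6 and H2-Q7, drawn for completeness, start from 3 and 4 counts in untreated WT cells and depend on the prior count of the fit.

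Levels under TNF differed as well. RelA-TA-KI cells had less of 4 of the 8 members at 8 h (8.11% of all genes were called lower, 15.9% in either direction): H2-Q4 (-2.51, SE 0.31, adjusted p = 9.4e-05), H2-K1 (-1.21, SE 0.29, adjusted p = 0.012), H2-T22 (-0.95, SE 0.18, adjusted p = 0.0029) and B2m (-0.58, SE 0.14, adjusted p = 0.015). DESeq2 called the same 4. At 3 h they had less of 1 of the 8 (2.4% of all genes lower, 3.19% in either direction), H2-Q4 (-2.20, SE 0.33, adjusted p = 0.0014), and DESeq2 also called H2-K1 (adjusted p = 0.011), which had -1.09 in edgeR (adjusted p = 0.068). At 1 and 0.5 h edgeR and DESeq2 called 0 of the 8 (0.91 and 0.195% of all genes, 0.852% lower at 1 h), with 0 at an unadjusted p below 0.05. At 8 h H2-K1 and B2m were lost without RelA-TA-KI replicate 1 (-0.97 and -0.44) or WT replicate 2 (-0.90 and -0.35).

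Macrophage and leukocyte markers stood the other way around. At 8 h of TNF their summed CPM were 1677 and 2682 in WT, against 2791 and 5313 in RelA-TA-KI, with a median difference of 1.01 and 0 markers at 0 counts in these libraries. Called higher in RelA-TA-KI were 2 of 20, Cd14 (1.60) and Ctss (1.09), a share near that of all genes (7.75% were called higher). Library number 2 of a group also had the higher CPM of 10 of 10 members in both groups at 8 h, in both at 3 h and in untreated WT cells. The part of these cells in the levels was not tested.

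The rest of the presentation machinery was read from lists of related genes, chosen with earlier results known. Of 14 genes that supply and load peptides, 9 had risen at 3 h and 11 at 8 h in WT (9.32 and 12% of all genes), led by Psmb10 and Psmb8 (2.96 and 2.97 at 8 h), subunits of the immunoproteasome, and Psmb9 (2.41). The median was 1.58 at 8 h beside -0.01 over all genes. In RelA-TA-KI 3 of 14 rose at 8 h, as many as the share of all genes gives (21.6%): Psmb10 (0.86), Psme3 (0.82), a proteasome activator subunit, and Tapbpl (0.56). At 3 h 2 of 14 rose there (10.9% of all genes), Calr (0.45) and Psme3 (0.40), and 1 fell by 0.59 (8.08% of all genes fell), Tap1, a subunit of the peptide transporter. The response at 8 h differed for 9 of the 14, smaller in RelA-TA-KI for 8 (3.42% of all genes) and larger for 1 (3.45% of all genes), Psme3 (0.32), named here after its value was seen. The largest gaps were in Psmb10 (-2.10, SE 0.29), in Tapbp, which encodes the loading chaperone tapasin (-1.90, SE 0.25), and in Tap2 (-1.65, SE 0.32).

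Tapbp went from 113 and 140.4 CPM to 519 and 676 at 8 h in WT and from 132 and 146 to 163 and 188 in RelA-TA-KI, without overlap at 8 h. Tap1 went from 34.5 and 40.2 CPM to 83 and 129 in WT, and from 38.6 and 39.5 to 48.3 and 49.5 in RelA-TA-KI. For both genes the lowest WT library at 8 h lay above the highest RelA-TA-KI library.

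Of 16 measured regulators of class I promoters, 6 rose in WT at 3 h and 9 at 8 h (9.32 and 12% of all genes). The largest response was that of Irf1, an interferon regulatory factor, at 21.8 and 25.7 CPM untreated, 187 and 233 at 0.5 h, 478 and 565 at 1 h, 174 and 232 at 3 h and 182 and 233 at 8 h. In RelA-TA-KI Irf1 was at 25.1 and 27.2 CPM untreated, 25.9 and 29.1 at 0.5 h, 37.4 and 41.3 at 1 h, 58.4 and 64.5 at 3 h and 44.9 and 50.2 at 8 h. Its response differed at each time, by -3.06, -3.86, -1.86 and -2.26 (SE 0.25, 0.25, 0.24 and 0.24). Relb, a subunit of NF-kB, rose in both genotypes at 8 h (2.87 in WT, 1.84 in RelA-TA-KI). Of the 16 regulators, 4 responded less in RelA-TA-KI at 8 h (3.42% of all genes): Irf1, Stat2 (-1.34), Relb (-1.03) and Rfx5 (-1.01), a subunit of the RFX complex. Ifnb1, which encodes interferon beta, had 0 CPM in 19 of the 20 TNF libraries and 0.126 in WT 8 h replicate 2.

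**Figure D3:**
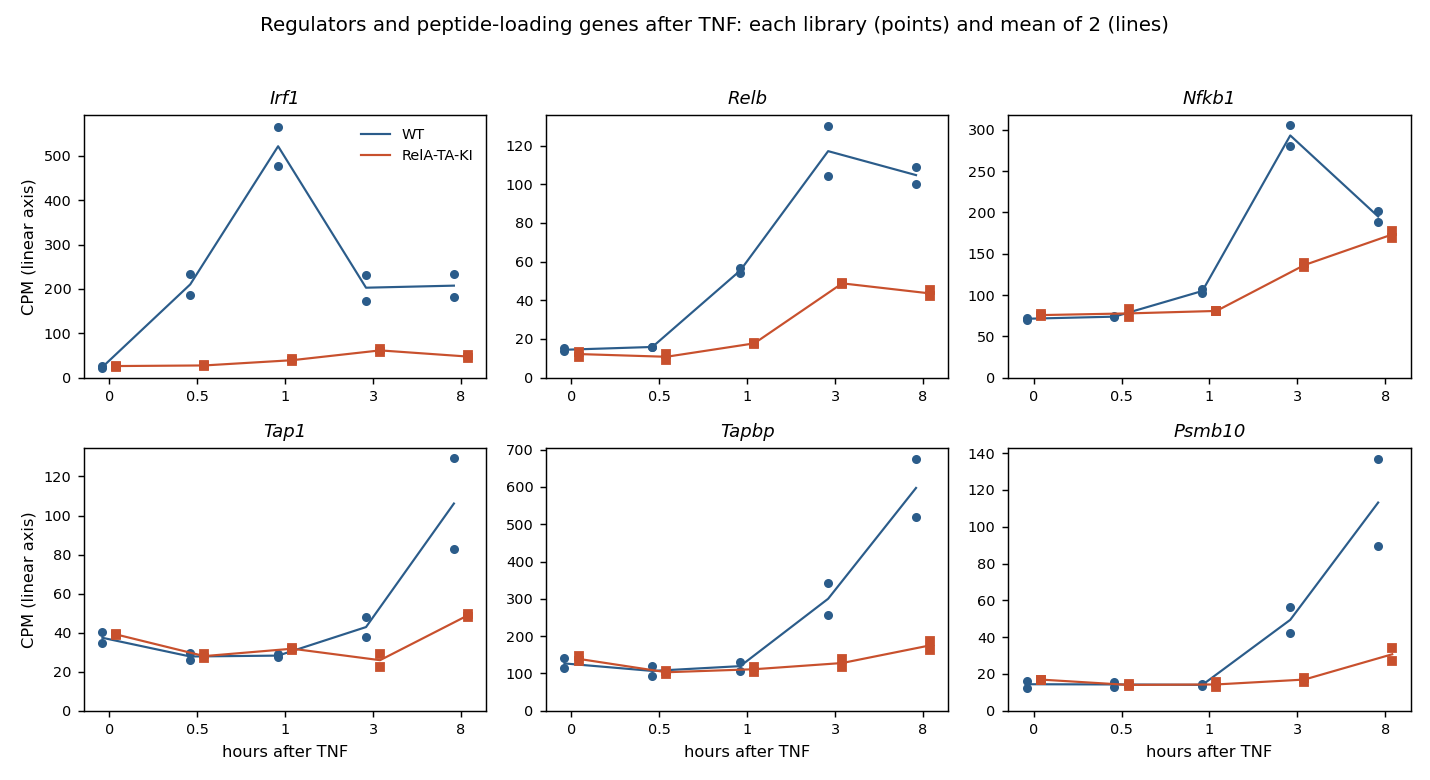
CPM (linear axis) of 3 regulators (Irf1, Relb, Nfkb1) and 3 peptide-supply genes (Tap1, Tapbp, Psmb10) by hours after TNF (evenly spaced, not to scale), each point 1 library and each line the mean of 2. Irf1 peaks at 1 h in WT at 478 and 565 CPM and stays at or below 64.5 in RelA-TA-KI, and Tapbp reaches 519 and 676 CPM at 8 h in WT and 163 and 188 in RelA-TA-KI.

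Of 15 other class I genes, 7 passed the filter on low counts. H2-M2 passed it only through treated libraries, so its rise is given as counts. Both libraries of a group had at least 10 counts only in WT at 3 and 8 h. It had 0 counts in the 4 untreated libraries, 10 and 15 in WT at 3 h, 22 and 22 in WT at 8 h and 9 and 57 in RelA-TA-KI at 8 h. None of the other 6 was called in WT at 3 or 8 h. In RelA-TA-KI 3 of these 6 fell at 8 h (20.5% of all genes fell), Cd1d1 by 1.05, Fcgrt by 1.00 and Mr1 by 0.97, which encode a lipid-presenting chain, the neonatal Fc receptor and a chain that presents vitamin B metabolites. Mr1 had also fallen by 0.69 at 3 h.

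LPS and Poly(I:C) were each followed by higher class I levels in both genotypes. Summed macrophage and leukocyte markers were also higher at 8 h than untreated. In WT they went from 5371 CPM to 7360 at 8 h of LPS and 6722 at 8 h of Poly(I:C), and in RelA-TA-KI from 4805 to 7396 and 8427. Their course was another one with Poly(I:C) in WT: 6745 CPM at 0.5 h, 7355 at 1 h and 5896 at 3 h. The sum of 7 endothelial markers went from 16.6 CPM to 89 and 149 in WT and from 19.7 to 280 and 768 in RelA-TA-KI. Of the latter, Kdr held 262 and 757 CPM, while Cldn5 had 0 counts in each of these libraries and Cdh5 at most 4.3 CPM. The part of these cells in the levels was not tested. These conditions have 1 library each, so they are described by size, with no p-value: a gene counts as changed with at least 2-fold and 5 CPM in 1 of the libraries. H2-Q6 and H2-Q7, below 5 CPM in the untreated libraries, could be counted only where they were high and are left out of the counts. At 3 h of LPS 8 of the other 8 members were higher in WT (12.9% of genes with 5 CPM in 1 of the libraries were higher) and 8 of 8 in RelA-TA-KI (11%), and the same was so at 8 h (17.6 and 17.4%). With Poly(I:C) 6 of 8 were higher at 3 h in WT (6.98%) and 7 of 8 in RelA-TA-KI (7.37%), and at 8 h 8 of 8 in both (10.9 and 15.8%). The members below 2-fold were H2-D1 (0.82) and B2m (0.74) in WT, and B2m (0.85) in RelA-TA-KI. At 0.5 and 1 h 0 of the 8 changed by size in either genotype with either agent (LPS 0.836 and 2.34% of genes in WT, 0.692 and 1.5% in RelA-TA-KI, Poly(I:C) 0.237 and 1.05%, 0.164 and 0.373%).

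In WT every member rose further with LPS than with Poly(I:C) at both 3 and 8 h, and Nlrc5 had the widest gap between the agents at both times. It went from 15.5 CPM untreated to 275 at 3 h and 536 at 8 h of LPS in WT, and from 10.3 to 248 and 509 in the knock-in. Poly(I:C) brought it to 94.3 and 305 CPM in WT, and to 177 and 463 in the knock-in. Its WT log2 ratio was thus 4.13 at 3 h and 5.10 at 8 h with LPS against 2.59 and 4.28 with Poly(I:C). In RelA-TA-KI the ratios at 8 h were 5.60 and 5.46. The TNF responses of Nlrc5 at 8 h, 2.09 and 0.97, come from a table normalized separately.

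H2-K1 went from 181 CPM to 797 and 1818 at 3 and 8 h of LPS in WT and from 137 to 510 and 1523 in RelA-TA-KI. Poly(I:C) brought it to 416 and 1269 CPM in WT, and to 385 and 1471 in the knock-in. B2m went from 768 CPM to 1781 and 3363 with LPS in WT and from 650 to 1385 and 2773 in RelA-TA-KI. The level in RelA-TA-KI was thus lower for both with LPS at 8 h and higher for both with Poly(I:C) at 8 h, where B2m was at 2413 and 2633.

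H2-Q4, which had the called gap at 3 and 8 h of TNF, went from 22.9 CPM to 326 and 802 with LPS in WT and from 16 to 203 and 580.1 in RelA-TA-KI. Poly(I:C) brought it to 152 and 591 CPM in WT, and to 134 and 551 in the knock-in. Its log2 ratio at 8 h of LPS was 5.12 in WT and 5.16 in RelA-TA-KI. H2-T22 went from 40.8 CPM to 236 and 638 with LPS in WT and from 34.2 to 261 and 671 in RelA-TA-KI, so that at both times its level was higher in RelA-TA-KI.

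**Figure D4:**
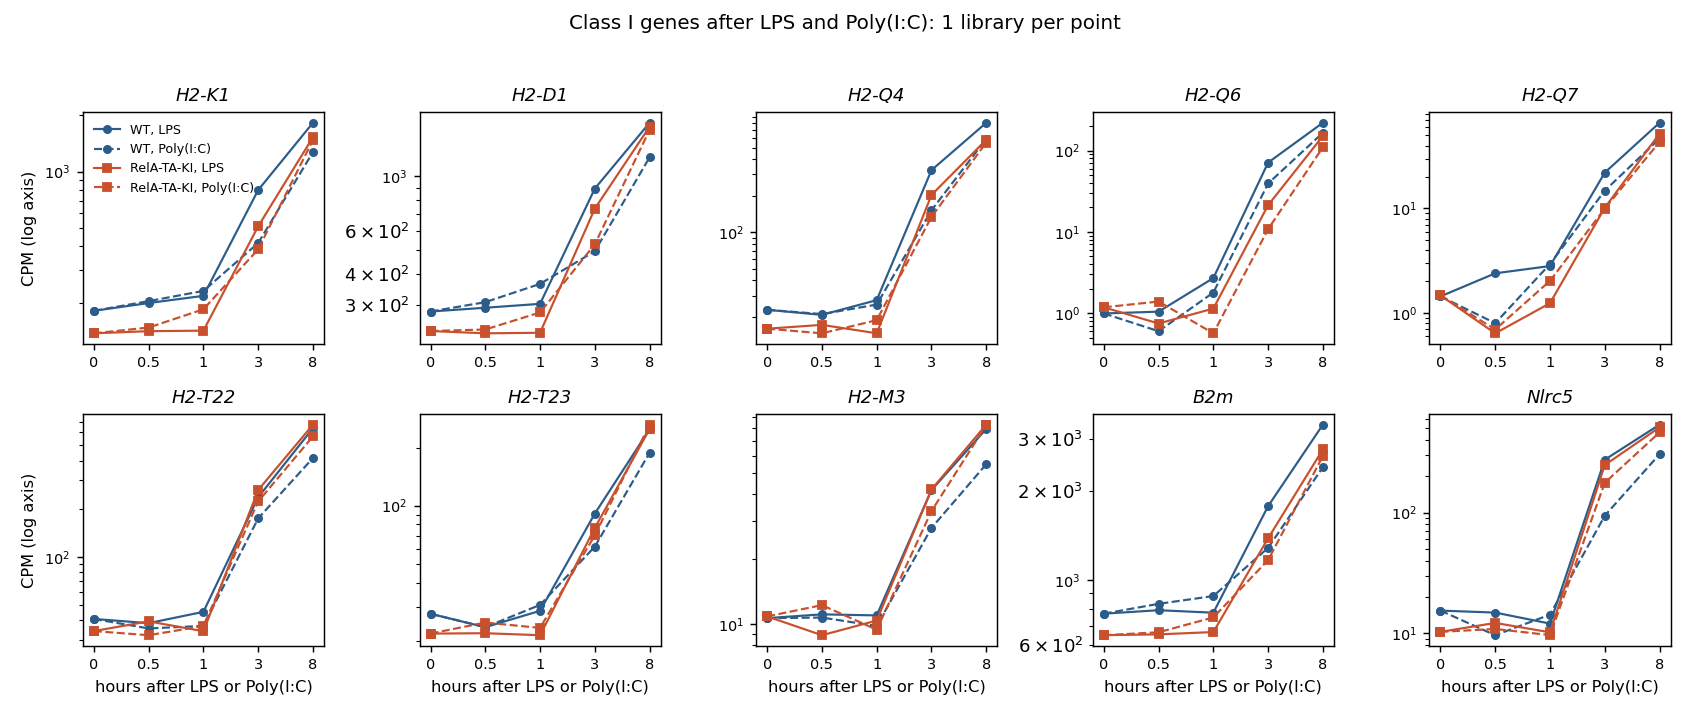
CPM (log axis) of the 10 members by hours after LPS (solid) or Poly(I:C) (dashed), evenly spaced and not to scale, in WT (blue circles) and RelA-TA-KI (red squares), 1 library per point. Levels leave the baseline between 1 and 3 h in both genotypes, and H2-Q6 at 3 h stands at 71.1 and 39.3 CPM in WT against 21.3 and 10.8 in RelA-TA-KI.

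H2-Q6 was the member with the widest genotype gap in this table as well. At 3 h it stood at 71.1 CPM with LPS in WT and 21.3 in RelA-TA-KI (log2 ratio -1.73), and at 39.3 and 10.8 with Poly(I:C) (-1.84). H2-Q7 at 3 h of LPS had 22 CPM in WT against 10.1 in the knock-in (-1.10). Of the other 8 members 0 were past 2-fold between genotypes at 3 h of LPS (3.38% of genes were lower) or of Poly(I:C) (1.26%). At 8 h H2-Q6 had narrowed to 219.8 against 151 CPM with LPS (-0.54) and 165 against 110 with Poly(I:C) (-0.59), and 0 members were past 2-fold (9.51 and 9.48% of genes). Of the 8 members other than H2-Q6 and H2-Q7, which were below 5 CPM, 0 were past it in the untreated libraries (1.12%), at 0.5 and 1 h of LPS (1.88 and 2.53%) or at 0.5 and 1 h of Poly(I:C) (1.16 and 1.59%).

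A common genotype difference over the 9 conditions of that table was fitted with condition as a covariate, so that its p-value measures how the difference varied over conditions. RelA-TA-KI cells had less of 5 of 10 members (8.33% of all genes were called lower, 15.9% in either direction). Among the 8 members counted by size above, these were H2-Q4 (-0.44, SE 0.08, adjusted p = 0.002), H2-K1 (-0.34, SE 0.08, adjusted p = 0.013) and B2m (-0.22, SE 0.05, adjusted p = 0.014). The rest were H2-Q6 (-0.99, SE 0.22, adjusted p = 0.01) and H2-Q7 (-0.55, SE 0.15, adjusted p = 0.024), which were left out of the counts by size. H2-Q6 and H2-Q7 were under 5 CPM untreated and at 0.5 and 1 h, and were not lower in every condition. Their untreated log2 ratios were 0.21 and 0.03, and H2-Q6 had 0.96 at 0.5 h of Poly(I:C). The gap of H2-Q6 was widest at 3 h (-1.73 with LPS, -1.84 with Poly(I:C)). H2-Q7 was lost without the 3 h libraries of LPS (-0.44, adjusted p = 0.076) or of Poly(I:C) (-0.55, adjusted p = 0.053). H2-D1 had -0.18, H2-T23 -0.07, Nlrc5 0.03, H2-T22 0.04 and H2-M3 0.10, with adjusted p-values of 0.16 to 0.91. Of the 20 macrophage and leukocyte markers 5 were lower in RelA-TA-KI in the same fit (Cd14 -0.52, Csf1r -0.50, Lyz2 -0.36, Adgre1 -0.33 and Itgam -0.28), with a median of -0.08, and their part in the difference was not tested. The untreated libraries are among the 9, and H2-K1 was lower there too (137 against 181 CPM). The genotypes also differ in the Xist and Ddx3y levels given above, which cannot be told apart from the genotype in this table. The difference in 4 late conditions (3 and 8 h) minus that in the 5 others was called by edgeR in 0 of 10 members (4.68% of all genes), with 4 at an unadjusted p below 0.05, and by DESeq2 in 2, H2-T22 (adjusted p = 0.039) and H2-D1 (adjusted p = 0.047), both positive.

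**Figure D5:**
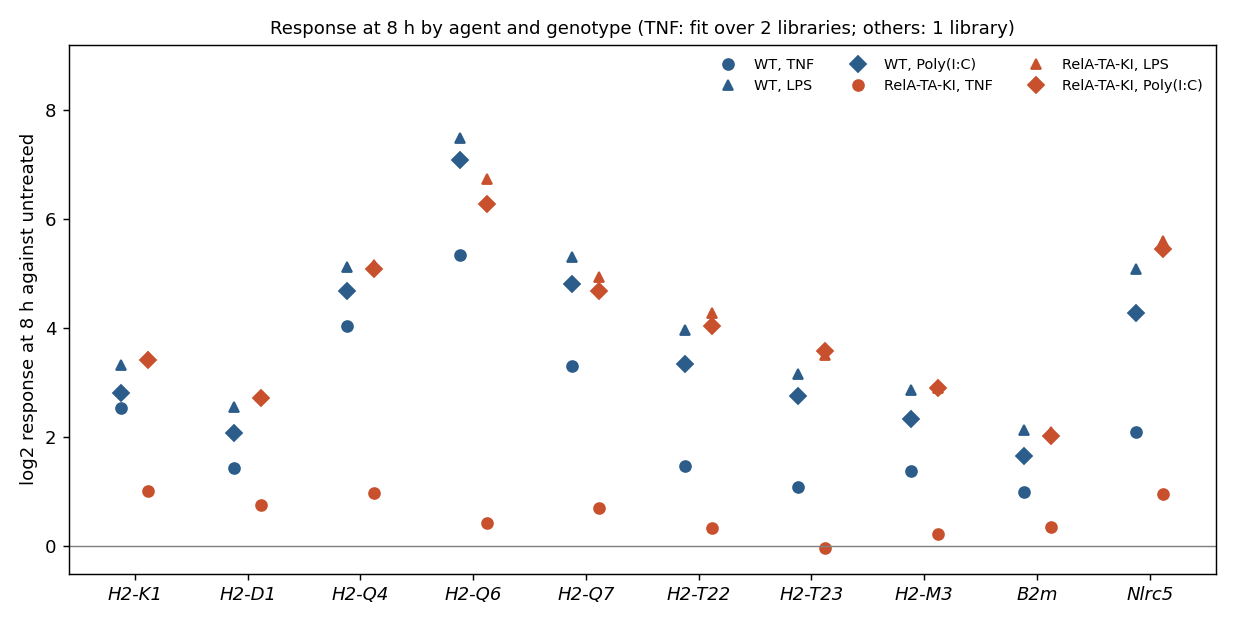
Log2 response at 8 h against untreated cells of each member (vertical axis) with TNF (circles), LPS (triangles) and Poly(I:C) (diamonds) in WT (blue) and RelA-TA-KI (red); TNF values are fits over 2 libraries, the others ratios of 1 library to 1. For TNF the RelA-TA-KI points of the 8 members counted lie between -0.03 and 1.01 and the WT points between 0.99 and 4.04. The TNF points of H2-Q6 and H2-Q7, drawn for completeness, start from 3 and 4 counts in untreated WT cells and depend on the prior count of the fit. For LPS and Poly(I:C) the lowest RelA-TA-KI point is 2.02. Untreated WT cells of the TNF table and of the other table started from different levels. Summed heavy chains were at 175 and 241 CPM against 567. Summed macrophage and leukocyte markers were at 1447 and 2273 CPM against 5371.

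Ifnb1 was present in this table. LPS brought it to 13 CPM at 1 h and 16.2 at 3 h in WT, against 21.6 and 73.4 in the knock-in. At 8 h of Poly(I:C) it had 32.4 CPM in WT against 75.4. Over the 9 conditions it was the 1 gene of 8 in the list of interferon ligand and receptor chain genes that was higher in RelA-TA-KI (1.27, SE 0.27, adjusted p = 0.008, with 7.62% of all genes higher), while Ifngr1 (-0.38) and Ifngr2 (-0.35) were lower. Of the peptide supply list 3 of 14 were lower, with 8.33% of all genes (Tapbp -0.36, Erap1 -0.29, Tapbpl -0.25), and of the regulators 4 of 17: Relb (-1.19), Rela (-0.30), Rfx5 (-0.23) and Creb1 (-0.18). With LPS, Irf1 reached 181 and 747 CPM at 0.5 and 1 h in WT, against 29.6 and 39.7 in the knock-in. At 8 h it had 560.4 CPM in WT against 495.

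Genes whose pattern was most like that of 3 members were taken from 11994 candidates by Pearson r of the group means of log2 CPM over the 10 TNF groups, which share genotypes and libraries. H2-K1 was most like Enpp4 (0.991), Cd47 (0.99) and Ikbke (0.989), with r over the 18 libraries of the other table of 0.965, 0.991 and 0.949. B2m was most like Ifitm3 (0.989), Adam17 (0.989) and Ube2l6 (0.986), with 0.977, 0.928 and 0.967. Nlrc5 was most like Tlr3 (0.991), Tdrd7 (0.981) and Tor1aip1 (0.977), with 0.993, 0.994 and 0.994. Among the members themselves r over the TNF groups ran from 0.588 (H2-Q7, with few counts, and Nlrc5) to 0.983 (H2-K1 and H2-Q4). For H2-K1 with Nlrc5 it was 0.847 over the TNF groups and 0.955 over the 18 libraries.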

How the data were processed

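The authors deposited raw read counts per gene for 38 libraries in 2 tables, with gene identifiers and exon lengths. Per the submitters' processing notes, reads were handled with cutadapt 1.9.1, STAR, featureCounts 1.4.6 and DESeq2 on mm10. Their roles, the annotation, the strand setting and the treatment of reads that fit several genes are not given in the sources used here. Per the labels' protocols, libraries were stranded and single-end.

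From these counts, CPM were computed with TMM factors and tested with edgeR 4.0.16 in R 4.3.3 (filterByExpr, quasi-likelihood F-test, Benjamini-Hochberg adjusted p below 0.05 over 13843 genes of the TNF table and 13759 of the other), in scripts tested on simulated data. The TNF fit held all 20 libraries with 10 residual degrees of freedom. The LPS and Poly(I:C) table, with 1 library per group, was fitted over 9 conditions with genotype and condition as terms (8 residual degrees of freedom). Size ratios used a prior count of 2. Alternatives were DESeq2 1.42.0, its size factors in edgeR, no filter on low counts, only the groups of a contrast, a replicate block, each library left out in turn, and 2 sets of libraries left out, chosen after seeing the data. The members and lists were chosen with earlier results of these data known. The 9-letter ISRE string missed the longer core, which was added after seeing the data. All 10 members were named, and of other lists the 3 called genes with the largest change in a comparison, plus all of a count of 5 or fewer. Y-linked and Xist levels served to compare libraries only.

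The replicate numbers were checked by correlating the deviations of libraries from their group means. For libraries of the same number r was 0.161 to 0.529 within WT (median 0.37, 10 pairs of times) and 0.161 to 0.37 within RelA-TA-KI (median 0.256, 10 pairs). Between genotypes it was 0.006 to 0.338 (median 0.212, 25 pairs). As a hint from the data, the numbers pair libraries within a genotype. In WT, Xist and Ddx3y also followed the number. The 5 WT libraries numbered 1 had 337 to 426 and 0.145 to 0.676 CPM. The 5 numbered 2 had 2.32 to 3.9 and 128 to 160. In RelA-TA-KI these 2 transcripts did not tell the numbers apart. Whether the numbers also pair libraries between genotypes is not settled by these values. No 2 replicates agreed within sampling noise (chi-square per gene 4.78 to 11.8 over 10 pairs). A gene of the fixed lists is counted in them but its own values are not reported here.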

Additional observations from a re-analysis of the deposited data

Results flagged for a closer look

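By a test of the difference itself, without a replicate block, the TNF response differed between WT and RelA-TA-KI cells in 4 results. On the log2 scale the RelA-TA-KI response minus the WT response was -2.75 for H2-Q4 at 3 h. At 8 h it was -1.52 for H2-K1, -3.06 for H2-Q4 and -1.15 for H2-T22. H2-Q4 at 8 h kept its call without each of the 8 libraries of that contrast in turn, and the calls of the other 3 results depended on single libraries.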

How the results depend on the processing

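No fitted value of a single member that was called reversed its direction under any alternative run: 2163 values kept their side of the threshold, 90 lost a call and 103 gained one. The counts of members called moved more. In this section they cover all 10 members, H2-Q6 and H2-Q7 included, which the filter favoured where WT exceeded RelA-TA-KI. Over the other 8, the difference of responses was called in 3 at 8 h and 1 at 3 h, in 8 and 3 without a filter, in 8 and 4 with either block, and in 1 and 0 in a fit restricted to the groups compared. At 8 h DESeq2 did not call H2-Q7 lower in RelA-TA-KI (adjusted p = 0.17), which left 5 members called instead of 6. For the difference of TNF responses at 8 h (4 called), 9 were called without a filter on low counts, 10 with a replicate block across genotypes or within each genotype, 2 in a fit restricted to the groups compared, 2 without all WT libraries numbered 2 and 0 without all RelA-TA-KI libraries numbered 2. At 3 h (2 called) these values were 4, 5, 5, 0, 0 and 0, and at 1 h (0 called) 1 was called without a filter. For RelA-TA-KI against WT at 8 h (6 called), the block gave 10, the restricted fit 2 and 3 were left without the WT libraries numbered 2. At 3 h (2 called) 4 were called without a filter, 7 with the block, 1 in the restricted fit and 1 without the RelA-TA-KI libraries numbered 2. At 1 h (1 called) DESeq2, the restricted fit and both sets of left-out libraries gave 0. Before treatment the block called 1 (H2-K1, higher by 0.32).

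For the RelA-TA-KI response at 8 h (3 called), 6 were called without a filter, with the block and with the block within genotype, and 0 without the libraries numbered 2. At 0.5 h (0 called) 3 were called without a filter and 4 with either block, at 1 h (0 called) 1, 1 and 2, and at 3 h (0 called) 1 under each of the 3. For the WT response at 3 h (4 called), 7 were called without a filter, 8 with either block and 2 without the WT libraries numbered 2, and at 1 h (0 called) 1 under the first 3. For the late conditions minus the others (0 called), DESeq2 called 2 and the fit without a filter 3. The cause of these moves was not tested. By the labels, the block across genotypes pairs libraries that share only a number, and whether they share more is not settled.

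With 1 library left out, the difference of responses was called in 0 to 2 members at 3 h and 2 to 5 at 8 h. RelA-TA-KI against WT was called in 0 to 1 at 1 h, 2 to 3 at 3 h and 3 to 7 at 8 h. The RelA-TA-KI response at 8 h was called in 0 to 4, and the WT response in 0 to 1 at 1 h and 8 to 10 at 8 h. In the other table, 4 to 6 members were called over the conditions and 0 to 1 for late against other conditions. The TNF counts of this paragraph include H2-Q6 and H2-Q7, which the filter favoured where WT exceeded RelA-TA-KI. At 6.72 to 9.59 M counts per library, H2-Q6 and H2-Q7 with 1 to 9 counts in most libraries could not be resolved outside treated WT cells.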
